A study of Mus musculus with 8 samples.

Results

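Collagen-modifying enzymes are described here through 10 genes: the prolyl 4-hydroxylase subunit genes P4ha1, P4ha2, P4ha3 and P4hb, the lysyl hydroxylase genes Plod1, Plod2 and Plod3, the lysyl oxidase genes Lox and Loxl1, and Serpinh1, which encodes a collagen chaperone. They were chosen by name, with earlier results of these data known. Each was read by the probe set whose platform annotation names that gene alone. Each of the 10 had exactly 1 such probe set, so no choice between probe sets was needed, and together they are 10 of the 19936 genes tested. The study measured whole-kidney RNA of 8 female mice of a mixed C57BL/6 - SV127 background on Affymetrix arrays, 1 mouse to an array. The 4 arrays labelled mutant came from Pax8-rtTA;LC-1;Vhl-floxed mice, and the 4 arrays labelled control from littermates whose own alleles the labels do not list. In the mutant genotype Pax8-rtTA directs a doxycycline-dependent Cre, carried by LC-1, to renal tubule epithelium, where it recombines floxed Vhl, so blood vessel, interstitial and glomerular cells of these kidneys are not the cells in which deletion was aimed at. Both groups drank 5% sucrose with doxycycline (0.2 mg/ml) from 3 weeks of age for 2 weeks, then normal water for 1 week, and were 6 weeks old at collection.

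Collagen chains are hydroxylated in the endoplasmic reticulum before they fold. Prolyl 4-hydroxylase makes the hydroxyproline that keeps the triple helix stable, and lysyl hydroxylases make the hydroxylysine that is glycosylated or later cross-linked. Both enzyme families need molecular oxygen, iron and 2-oxoglutarate. After secretion, lysyl oxidases convert lysine and hydroxylysine side chains into reactive aldehydes, which join neighbouring collagen or elastin molecules. Several of these genes, among them P4HA1, P4HA2, PLOD2 and LOX in human cells, are known to be induced by hypoxia-inducible factor (HIF), the transcription factor whose alpha subunits the Vhl protein marks for degradation.

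The arrays ran against their labels at the targeted pathway, which sets how directions are written below. Egln3 and Car9, 2 transcripts that HIF induces, were 7.81-fold and 7.35-fold lower in the arrays labelled mutant (limma adjusted p = 2.15e-06 and 0.000523), and Vhl itself was 1.22-fold higher there (limma adjusted p = 0.0387). Which part of Vhl its probe set covers is not given in the sources used here. Directions below therefore follow the labels of the arrays and are not directions of Vhl loss. Whether the labels of the 2 groups were exchanged was not tested, and an exchange would turn every direction round. The deposited values are on a log2 scale from 1.92 to 14.7, with array medians of 7.55 to 7.58. The number of arrays limits precision, and log2 differences had a median standard error of 0.0718. On the second principal component of the genes (19.1% of the variance) mutant arrays 1 and 2 lay at 14.5 and 6.99 and mutant arrays 3 and 4 at -16.3 and -14.2, so results are also given without either pair where that matters.

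In the arrays labelled mutant 6 of the 7 prolyl 4-hydroxylase subunit and lysyl hydroxylase genes were lower, P4ha3 being the exception. The call of P4hb among the 6 was lost under most alternatives. Of the 10 genes 7 fell, none rose and the test was not passed by 3, whereas 4.64% of all genes tested were called lower and 2.59% higher. The call is a limma adjusted p under 0.05, two-sided, with the Benjamini-Hochberg adjustment over all 19936 genes. The genes that fell were P4ha1, P4ha2, P4hb, Plod1, Plod2, Plod3 and Lox, and those that did not pass were P4ha3, Loxl1 and Serpinh1. In the same 7 genes all 4 arrays labelled mutant lay below all 4 arrays labelled control, an arrangement found in 8.2% of all genes. With the replicate number as a block 6 of the 10 were called lower, against 5.27% of all genes. The median log2 difference was -0.51 over the 10 genes and 0.03 over all genes tested. By class within the 10, 3 of 4 prolyl 4-hydroxylase subunit genes fell (median log2 difference -0.60). So did 3 of 3 lysyl hydroxylase genes (median -0.68) and 1 of 2 lysyl oxidase genes (median -0.48). Loxl3 and Loxl4, lysyl oxidase family genes outside the 10, did not pass. Their log2 differences were -0.05 and 0.16 (limma adjusted p = 0.736 and 0.364). Fewer cells of a type and less RNA per cell cannot be told apart in whole-kidney RNA.

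**Figure D1:**
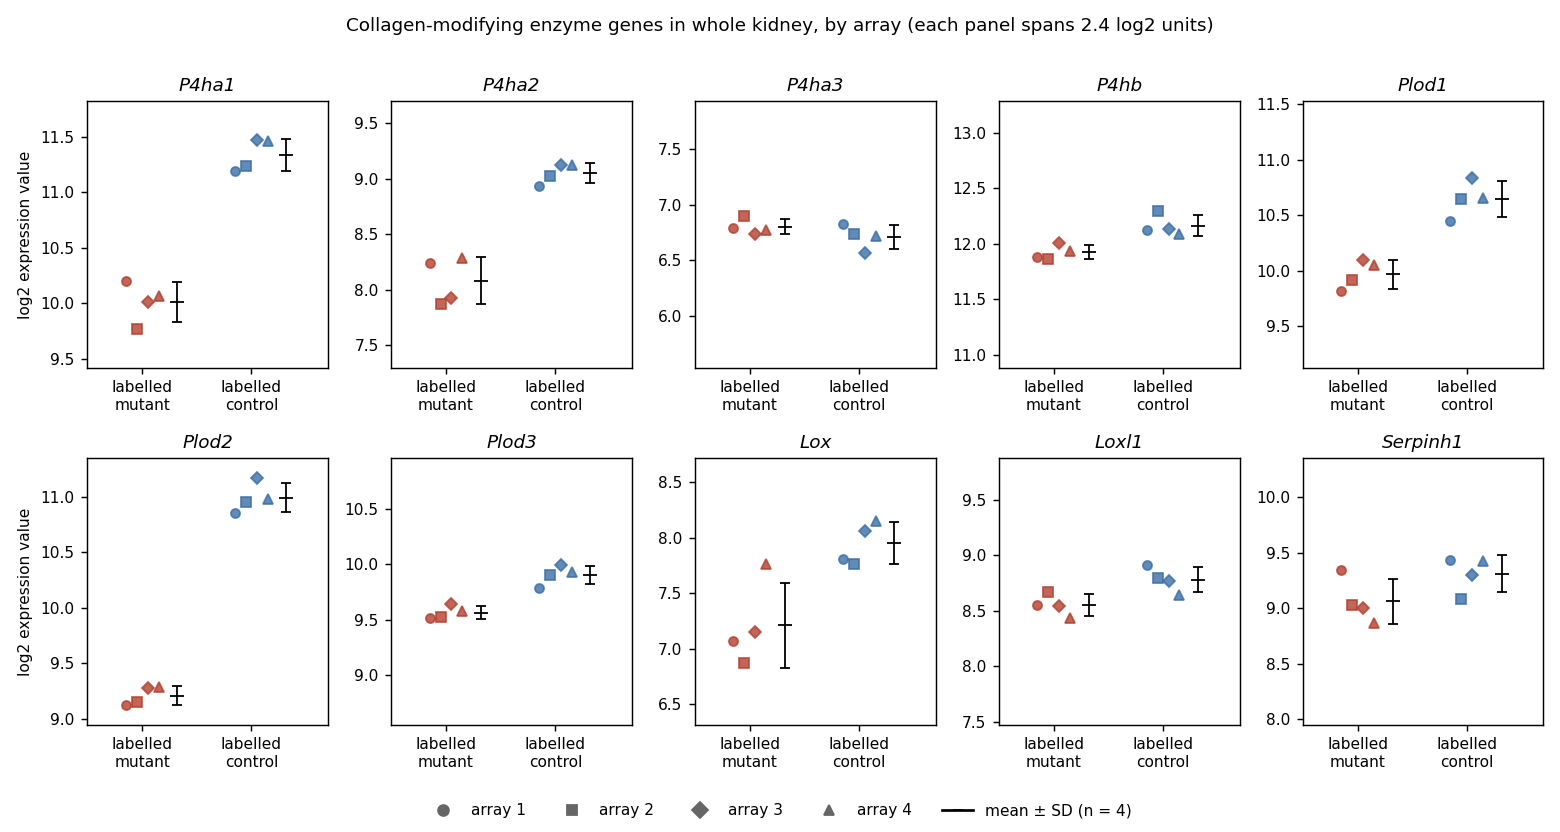
Log2 expression values (vertical axes) of the 10 genes on each array, labelled mutant arrays on the left of each panel and labelled control arrays on the right, with marker shapes for array numbers 1 to 4 and bars for the mean ± SD (n = 4). The groups stand apart in P4ha1, P4ha2, P4hb, Plod1, Plod2 and Plod3, nearly touch in Lox and overlap in P4ha3, Loxl1 and Serpinh1.

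Plod2, the lysyl hydroxylase that acts on the telopeptides of collagen and so sets the type of cross-link, had the largest difference of the 10. It read 9.12, 9.15, 9.28 and 9.29 on mutant arrays 1 to 4, against 10.86, 10.95, 11.17 and 10.98 on control arrays 1 to 4. The highest labelled mutant array lay 1.57 log2 units below the lowest labelled control array, while the arrays of a group spanned 0.17 units in the mutant and 0.31 units in the control group. The group means were 9.21 ± 0.0858 and 10.99 ± 0.131 (SD, n = 4 each), a 3.44-fold lower value in the arrays labelled mutant (log2 difference -1.78, 95% interval -1.95 to -1.61, limma adjusted p = 2.15e-06). Among all 19936 genes only 17 had a lower log2 difference. Compared within array numbers, the difference ran from -1.89 to -1.70 and was negative in 4 of 4 pairs.

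Plod1, which hydroxylates lysines within the collagen helix, read 9.81, 9.91, 10.09 and 10.05 on the arrays labelled mutant and 10.45, 10.65, 10.84 and 10.66 on the arrays labelled control. It was 1.60-fold lower (log2 difference -0.68, 95% interval -0.88 to -0.48, limma adjusted p = 0.00224), and the groups were 0.35 units apart at their nearest arrays. Plod3, whose protein also carries glycosyltransferase activity towards hydroxylysine, read 9.51, 9.52, 9.64 and 9.58 against 9.79, 9.90, 9.99 and 9.93. Its fall was smaller, 1.27-fold, yet the groups did not overlap (log2 difference -0.34, 95% interval -0.47 to -0.21, limma adjusted p = 0.00748). Array 1 was the lowest and array 3 the highest labelled control array for all 3 lysyl hydroxylase genes. Without mutant arrays 1 and 2, Plod3 did not pass (limma adjusted p = 0.0634), while Plod1 and Plod2 still did (0.0196 and 0.000171).

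P4ha1 encodes the most widely expressed catalytic alpha subunit of prolyl 4-hydroxylase. Its values were 10.20, 9.77, 10.01 and 10.06 on the arrays labelled mutant, against 11.19, 11.24, 11.47 and 11.46 on the arrays labelled control. The groups were 0.99 units apart at their nearest arrays, and the fall was 2.51-fold (log2 difference -1.33, 95% interval -1.55 to -1.11, limma adjusted p = 7.37e-05). P4ha2, an alternative catalytic subunit, read 8.24, 7.87, 7.93 and 8.28 against 8.94, 9.02, 9.13 and 9.12. It was 1.96-fold lower (log2 difference -0.97, 95% interval -1.19 to -0.75, limma adjusted p = 0.000523), again with no overlap. In both genes the labelled mutant arrays were more spread, with SDs of 0.179 for P4ha1 and 0.211 for P4ha2, than the labelled control arrays, with 0.146 and 0.0892. Mutant array 2 was the lowest of its group for both.

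P4ha3, the third catalytic subunit gene, read 6.79, 6.90, 6.74 and 6.77 on the arrays labelled mutant and 6.82, 6.73, 6.56 and 6.72 on the arrays labelled control. The groups overlapped, and the log2 difference of 0.09 had a 95% interval of -0.06 to 0.24 (limma adjusted p = 0.456). These values lay near the lower quartiles of the arrays (6.21 to 6.28), where a difference can be understated. P4hb encodes protein disulfide isomerase, which is the beta subunit of prolyl 4-hydroxylase and also acts on many other proteins. It read 11.88, 11.87, 12.01 and 11.94 against 12.12, 12.30, 12.14 and 12.09, a 1.18-fold fall (log2 difference -0.24, 95% interval -0.38 to -0.10, limma adjusted p = 0.0474). The groups were 0.08 units apart, and this call was lost under more alternatives than any other of the 7. It did not pass in the blocked fit (limma adjusted p = 0.0765), after centring the arrays on their medians (0.0678), without either pair of mutant arrays (0.244 and 0.0561), or in 7 of the 8 fits that left out 1 array (0.0518 to 0.130), all but the one without mutant array 3.

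**Figure D2:**
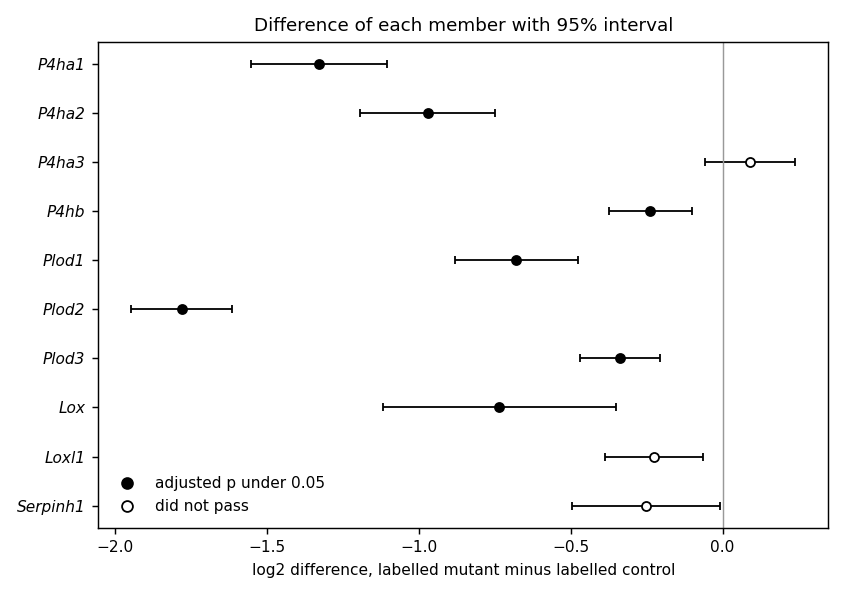
Log2 difference of each of the 10 genes, labelled mutant minus labelled control (horizontal axis), with its 95% interval from limma, filled where the adjusted p was under 0.05. Plod2 at -1.78 and P4ha1 at -1.33 lie farthest from 0, and the interval of P4ha3 alone spans it.

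The 5 hydroxylase subunit genes that fell and had a promoter sequence each held the core letters of the element that HIF binds before their annotated start, and 4 of these stretches are printed to show where the letters lie. The sequences are RefSeq promoters of build GRCm38.p6, each the 250 bases before the start, written 5′ to 3′ on the strand of the gene, with every match to ACGTG or GCGTG on either strand in capitals (a match on the opposite strand reads CACGT or CACGC). They are the called genes with the largest differences among those with a sequence in the table used.
P4ha1: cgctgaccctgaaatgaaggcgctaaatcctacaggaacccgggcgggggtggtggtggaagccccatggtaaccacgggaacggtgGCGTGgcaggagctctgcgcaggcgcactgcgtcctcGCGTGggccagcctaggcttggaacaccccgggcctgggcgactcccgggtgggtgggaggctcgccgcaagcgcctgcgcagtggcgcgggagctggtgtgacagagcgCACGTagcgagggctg
P4ha2: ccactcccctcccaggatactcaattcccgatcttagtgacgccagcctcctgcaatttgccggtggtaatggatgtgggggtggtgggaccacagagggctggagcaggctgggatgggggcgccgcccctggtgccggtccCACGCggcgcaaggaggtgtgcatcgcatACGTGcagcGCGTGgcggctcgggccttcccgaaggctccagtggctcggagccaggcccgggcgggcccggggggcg
Plod1: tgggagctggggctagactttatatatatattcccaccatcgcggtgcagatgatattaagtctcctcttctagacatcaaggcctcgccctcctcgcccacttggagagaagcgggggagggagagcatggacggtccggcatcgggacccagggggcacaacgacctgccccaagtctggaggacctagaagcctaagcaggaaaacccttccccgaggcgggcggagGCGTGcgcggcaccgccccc
Plod3: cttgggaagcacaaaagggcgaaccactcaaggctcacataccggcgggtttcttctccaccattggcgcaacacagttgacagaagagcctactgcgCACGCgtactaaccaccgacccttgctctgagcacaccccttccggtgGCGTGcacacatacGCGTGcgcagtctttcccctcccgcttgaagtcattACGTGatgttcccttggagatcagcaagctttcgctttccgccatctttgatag
They lie at chr10:59323046-59323295 on the plus strand, chr11:54100674-54100923 on the plus strand, chr4:147936777-147937026 on the minus strand and chr5:136986769-136987018 on the plus strand. P4ha1 held 3 matches, the nearest to the start at -16 to -12, and P4ha2 also held 3, with ACGTG at -78 to -74 and GCGTG at -69 to -65 on the same strand. Plod1 held 1, at -20 to -16, and Plod3 held 4, from -152 to -50. P4hb, the remaining called gene with a sequence, held 2. Of the 2 genes with a sequence that were not called, Serpinh1 held 1 match and P4ha3 held 0. The motif is common, since 38.6% of all 32851 promoters of this table held a match in the same 250 bases, and the 7 stretches of these genes are rich in G and C (55.6% to 70.0%). A match is a description of letters, and binding was not measured. Of the 10 genes, 7 had a promoter in the table; Plod2, Lox and Loxl1 had none.

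Lox, the founding lysyl oxidase, read 7.07, 6.88, 7.15 and 7.76 on the arrays labelled mutant and 7.81, 7.77, 8.07 and 8.16 on the arrays labelled control. Mutant array 4 lay 0.61 units above the next of its group and 0.0049 units below the lowest labelled control array. The groups thus nearly met. Mutant arrays 1 to 3 read below the array medians (7.55 to 7.58), and at low signals a difference can be understated. The fall was 1.67-fold (7.21 ± 0.383 against 7.95 ± 0.190, SD, n = 4 each; log2 difference -0.74, 95% interval -1.12 to -0.35, limma adjusted p = 0.0301). It did not pass in 7 of the 8 fits that left out 1 array (limma adjusted p from 0.0513 to 0.0897). Without mutant array 4 it passed with a larger difference (-0.92, limma adjusted p = 0.00267), and with the replicate block it also passed (0.00697). Without mutant arrays 1 and 2 the difference was -0.49 (limma adjusted p = 0.181), and without mutant arrays 3 and 4 it was -0.98 (0.00572).

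Loxl1, a lysyl oxidase relative known for its part in elastic fibres, read 8.55, 8.67, 8.54 and 8.43 against 8.91, 8.80, 8.77 and 8.64. The groups overlapped by 1 array on each side, and the log2 difference of -0.23 had a 95% interval of -0.39 to -0.07 but did not pass after adjustment (limma adjusted p = 0.0978). Serpinh1, whose protein binds the collagen triple helix in the endoplasmic reticulum, read 9.34, 9.03, 9.00 and 8.86 against 9.43, 9.09, 9.30 and 9.43. Mutant array 1 lay among the labelled control arrays, and the log2 difference of -0.25 had a 95% interval of -0.50 to -0.01 (limma adjusted p = 0.216). Both genes were lower in 4 of 4 same-numbered pairs, by 0.13 to 0.36 units for Loxl1 and by 0.05 to 0.56 units for Serpinh1.

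Genes of 1 enzyme class differed from each other in the size of the change that their probe sets read. Each gene had 1 probe set, and probe sets can respond unequally to the same change of RNA. The values below compare readings, and unequal changes of RNA were not tested. For 7 pairs of related genes the log2 difference between the genes was taken within each array and compared between groups with an exact two-sided permutation test, whose smallest p with 4 against 4 arrays is 0.0286. In 6 of the 7 pairs the groups did not overlap, each with an exact p of 0.0286 (adjusted over the 7 pairs, 0.0333). Pairs among the alpha subunits share genes, as do pairs among the lysyl hydroxylases, so the 7 tests are not independent. By these readings Plod2 fell 2.15-fold more than Plod1 and 2.72-fold more than Plod3. Plod1 minus Plod2 read 0.69 to 0.82 on the arrays labelled mutant and -0.41 to -0.30 on the arrays labelled control, and Plod2 minus Plod3 read -0.39 to -0.29 against 1.05 to 1.18. Within each group these differences varied little, with SDs of 0.0435 to 0.0613, less than the SD of Plod2 by itself (0.0858 and 0.131). Plod1 in turn fell 1.27-fold more than Plod3, with Plod1 minus Plod3 at 0.30 to 0.47 against 0.66 to 0.85.

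Among the alpha subunits the difference between P4ha1 and P4ha2 was smaller. P4ha1 minus P4ha2 read 1.78 to 2.08 on the arrays labelled mutant and 2.21 to 2.35 on the arrays labelled control. The reading of P4ha1 thus fell 1.28-fold more. The values set against P4ha3 show the larger contrasts: P4ha1 minus P4ha3 was 3.21 ± 0.234 against 4.63 ± 0.241 and P4ha2 minus P4ha3 1.28 ± 0.249 against 2.34 ± 0.189 (SD, n = 4 each). Both rest on a probe set near the lower quartiles, where a change of P4ha3 can be understated. For Lox minus Loxl1 the groups overlapped, at -1.79 to -0.67 against -1.10 to -0.48. Lox fell by 0.51 log2 units more than Loxl1, which did not pass the test (exact p = 0.143, adjusted over the 7 pairs 0.143). When arrays are compared within their numbers, the 4 pairs allow no exact p below 0.125, and each of the 7 differences kept 1 sign in 4 of 4 pairs.

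**Figure D3:**
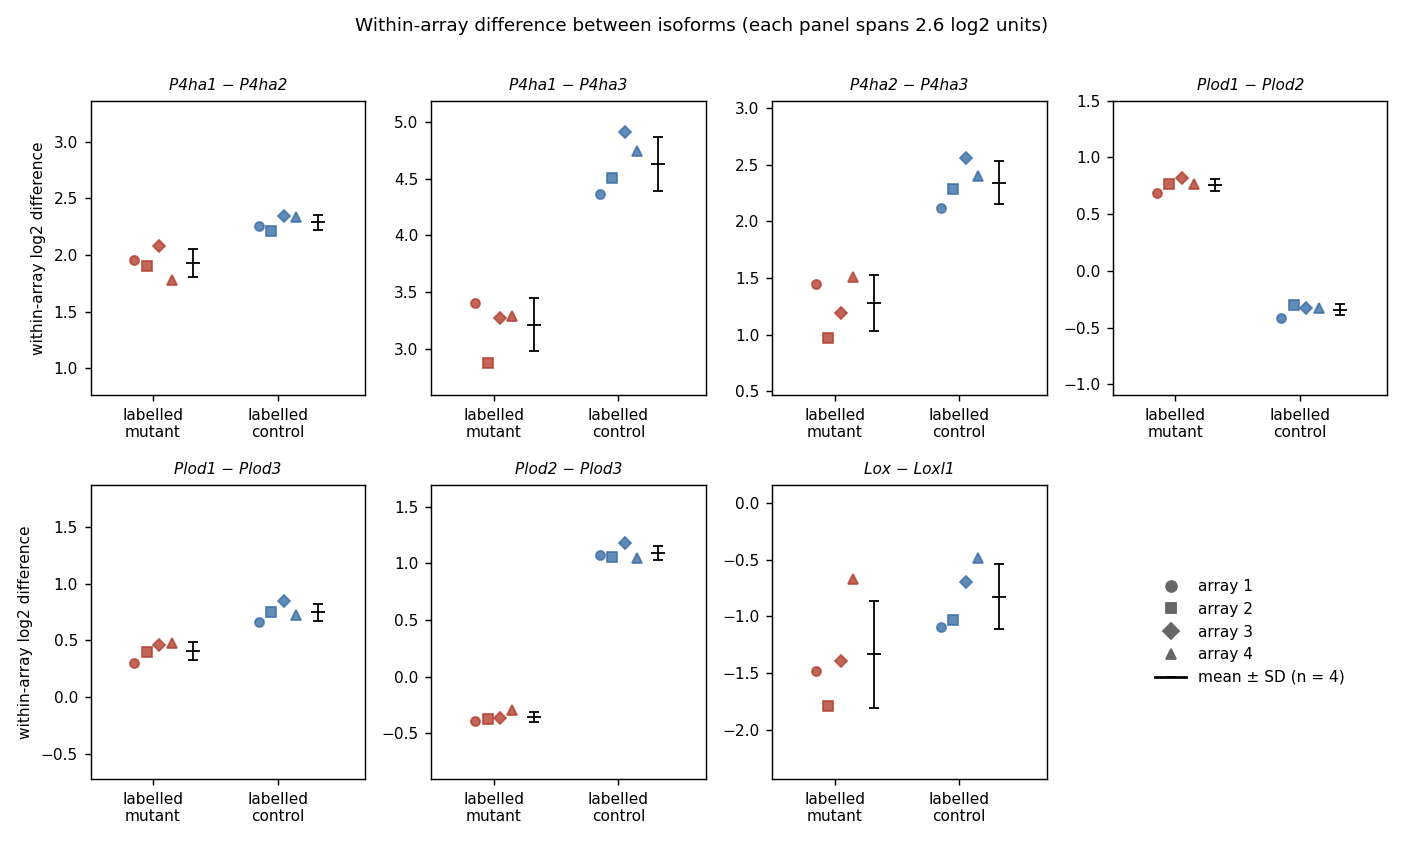
Within-array log2 difference between related genes (vertical axes) for the 7 pairs, labelled mutant arrays on the left of each panel and labelled control arrays on the right, with bars for the mean ± SD (n = 4). The groups stand apart in 6 panels, widest for Plod2 minus Plod3, and overlap for Lox minus Loxl1.

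Some other genes of collagen maturation were also called, in both directions. Of 28 other collagen-processing genes listed, 25 were measured, and 4 fell, 2 rose and 19 did not pass, where 4.64% of all genes were called lower and 2.59% higher, with a median log2 difference of -0.03 (all genes 0.03). Fkbp14, a prolyl isomerase of the endoplasmic reticulum, fell 1.54-fold (7.91 ± 0.165 against 8.53 ± 0.0692, SD, n = 4 each; limma adjusted p = 0.00199). Crtap, the scaffold of the prolyl 3-hydroxylase complex, fell 1.42-fold (9.80 ± 0.0956 against 10.3 ± 0.127; limma adjusted p = 0.00362), and Colgalt1, which adds galactose to hydroxylysine, fell 1.32-fold (8.98 ± 0.0548 against 9.38 ± 0.115; limma adjusted p = 0.00575). P3h4, a noncatalytic member of the prolyl 3-hydroxylase family that acts with lysyl hydroxylation, fell 1.21-fold (limma adjusted p = 0.0261), a call lost in 5 of the 8 fits that left out 1 array (0.0598 to 0.0815). Without mutant arrays 1 and 2 neither P3h4 nor Colgalt1 passed (0.123 and 0.0509). The prolyl 3-hydroxylase genes P3h1, P3h2 and P3h3, chosen after their values were seen, did not pass. Their log2 differences were -0.03, -0.03 and -0.12 (limma adjusted p = 0.808, 0.722 and 0.398).

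The 2 genes that rose encode enhancers of procollagen C-proteinase, the enzyme that trims procollagen outside the cell. Pcolce read 11.20, 11.30, 11.03 and 10.99 on the arrays labelled mutant and 10.64, 10.50, 10.69 and 10.63 on the arrays labelled control, without overlap and 1.43-fold higher (limma adjusted p = 0.00401). Pcolce2 was 1.45-fold higher, at 8.63 ± 0.249 against 8.09 ± 0.219 (SD, n = 4 each; limma adjusted p = 0.0418). Its groups overlapped, as mutant array 4 at 8.28 lay below control array 1 at 8.35, and it did not pass in 6 of the 8 fits without 1 array (0.0833 to 0.116). Bmp1, the C-proteinase itself, did not pass (log2 difference -0.25, limma adjusted p = 0.0560) but did with the replicate block (0.0485); it is named for this change and was chosen after its values were seen. Fkbp10, Loxl2 and Adamts2 were not analysed here, because no probe set names them alone.

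Transcripts of the proteins on which these enzymes act were called for 3 chains. Of 17 collagen and elastin chain genes 3 fell, 0 rose and 14 did not pass, where 4.64% of all genes were called lower, with a median log2 difference of -0.04. The 3 were Col4a2 and Col4a1, the paired chains of the ubiquitous basement membrane collagen, 1.45-fold and 1.40-fold lower (limma adjusted p = 0.00184 and 0.00592), and the elastin gene Eln, 1.29-fold lower (8.21 ± 0.0331 against 8.58 ± 0.0339, SD, n = 4 each; limma adjusted p = 0.00182). The main fibrillar collagen chains, chosen after their values were seen, did not pass. Their log2 differences were -0.04 for Col1a1 (95% interval -0.23 to 0.14), -0.12 for Col1a2 (-0.26 to 0.02) and -0.15 for Col3a1 (-0.28 to -0.01).

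**Figure D4:**
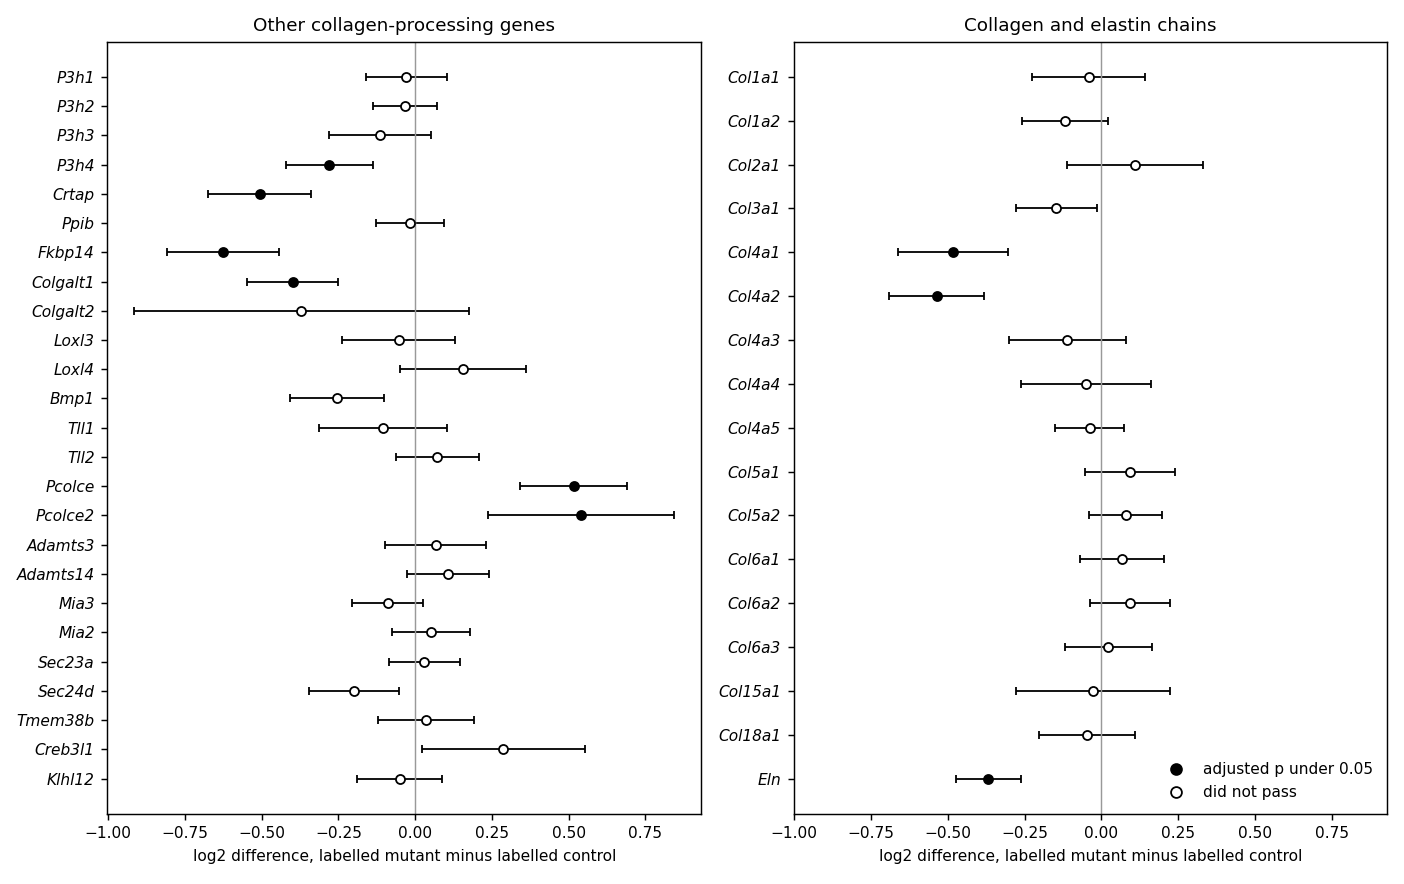
Log2 difference, labelled mutant minus labelled control (horizontal axes), with 95% intervals from limma for 25 other collagen-processing genes on the left and 17 collagen and elastin chain genes on the right, filled where the adjusted p was under 0.05. Filled points are 4 lower and 2 higher on the left and 3 lower on the right.

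Markers of vessel cells and of cycling cells were among the genes called lower in the arrays labelled mutant, where 4.64% of all genes were. Endothelial markers fell in 10 of 10 genes, led by the VEGF receptor gene Kdr (1.86-fold), with a list mean of 10.10 to 10.21 on the arrays labelled mutant and 10.78 to 10.95 on the arrays labelled control. Perivascular markers fell in 4 of 8 genes, led by the contractile gene Cnn1 (1.81-fold), with list means of 8.72 to 9.05 against 9.19 to 9.44. Fibroblast markers fell in 3 of 10 genes, led by the proteoglycan gene Lum (2.06-fold), with list means of 8.75 to 8.81 against 8.89 to 9.10; this list shares Col1a1, Col1a2 and Col3a1 with the collagen chains. Cycling markers fell in 4 of 4 genes, led by Mki67 (1.98-fold), at 7.05 to 7.73 against 7.92 to 8.29.

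Of the tubule markers, 3 in each of the lists for proximal tubule and distal nephron were higher in the arrays labelled mutant and the rest did not pass. Of all genes, 2.59% were called higher. In the proximal tubule list 3 of 10 genes rose, led by the amino acid transporter gene Slc6a19 (1.76-fold), with list means of 12.5 to 12.7 against 12.2 to 12.5. In the distal nephron list 3 of 8 rose, led by the calcium-binding protein gene Calb1 (1.45-fold), at 11.7 to 11.9 against 11.4 to 11.6. Of 4 podocyte markers Podxl fell 1.22-fold and the other 3 did not pass. Nphs1 and Wt1 were higher without overlap (log2 differences 0.17 and 0.10, limma adjusted p = 0.147 and 0.277). Synpo was lower with overlap (-0.17, limma adjusted p = 0.341). Means of the podocyte list overlapped at 9.16 to 9.33 against 9.23 to 9.34. No leukocyte marker of 7 passed. The largest difference there was that of Ptprc, the common leukocyte antigen gene (-0.25), and that list's means were 8.57 and 8.52 on mutant arrays 1 and 2, 8.04 and 8.02 on mutant arrays 3 and 4, and 8.22 to 8.48 on the arrays labelled control. The lowest group mean of a marker was 6.60, above the lower quartile of every array. Proximal tubule and distal nephron markers had group means of at least 10.6 and 9.69. The part of these cell types in the enzyme results was not tested.

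**Figure D5:**
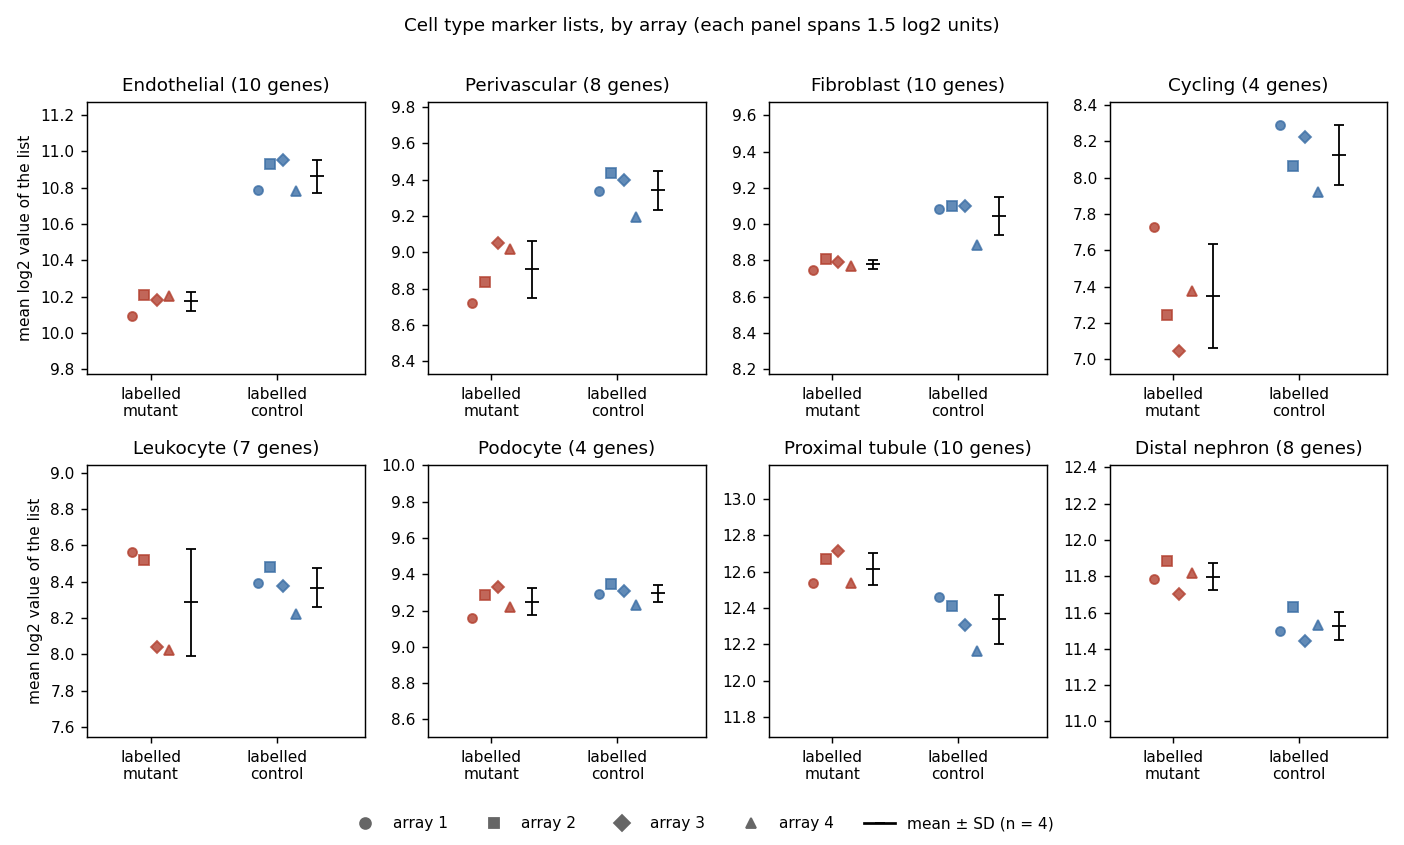
Mean log2 value of each cell type marker list (vertical axes) on each array, labelled mutant arrays on the left of each panel and labelled control arrays on the right, with bars for the mean ± SD (n = 4). The endothelial, perivascular, fibroblast and cycling lists are lower and the proximal tubule and distal nephron lists higher on every labelled mutant array than on any labelled control array, while leukocyte and podocyte lists overlap.

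Among 18617 other genes with names of their own, the 3 whose values followed Plod2 most closely over the 8 arrays were Pfkp, Pfkl and Fgf11. Likeness was the Euclidean distance between values after subtraction of each gene's mean, which was 0.231 log2 units for Pfkp, 0.266 for Pfkl and 0.284 for Fgf11. Pfkp and Pfkl encode phosphofructokinases and Fgf11 a member of the fibroblast growth factor family. Pfkp read 9.31 to 9.50 on the arrays labelled mutant and 10.9 to 11.4 on the arrays labelled control, Pfkl 9.61 to 9.81 against 11.5 to 11.7, and Fgf11 7.44 to 7.63 against 9.08 to 9.37. Each of these genes was 3.21-fold to 3.72-fold lower in the arrays labelled mutant, which follows from their choice by closeness to Plod2 and is not a separate result.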

How the data were processed

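Whole-kidney total RNA was isolated with TRIzol, purified with an RNeasy kit and labelled with biotin for Affymetrix arrays, per the labels' protocols. The values used were the log2 values of 35556 probe sets on 8 arrays as the authors deposited them. Of tools, limma is named in the submitters' processing notes, with no version. Background correction, summarization, normalization and genome build are not given in the sources used here. No value was filtered, transformed or renormalized. Gene names came from the platform annotation (21789 probe sets naming 1 gene, 1621 naming several, 12146 unlisted), updated by Entrez identifier or RefSeq accession to the gene table of GRCm38.p6, to which 21701 matched. The probe set with the highest mean stood for each of 19936 genes.

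Groups were compared by lmFit and eBayes of limma 3.58.1, run in R 4.3.3 on all 8 arrays with 1 factor, with Benjamini-Hochberg adjustment over all genes. Differences are labelled mutant minus labelled control arrays, and folds are 2 raised to their size. The fit was tested on simulated data. The 10 genes, the lists and the tests were chosen with earlier results of these data known. Named were all 10 genes, the called genes of the processing list (up to 4 in each direction) and of the chain list (up to 3), the gene with the largest change of each marker list, Vhl, Egln3 and Car9, and the 3 genes nearest to the member with the largest difference. Array numbers 1 to 4 recur in both groups without a stated meaning. For arrays with the same number, deviations from group means had correlations of 0.138, 0.153, 0.295 and 0.175. The highest correlation between arrays of unlike number was 0.111, for mutant array 2 and control array 1. A pairing that the labels do not give is possible and was not tested. The main tests are unpaired, and values with the number as a block are given where they change a call. Each array stands for 1 mouse. Alternatives were quantile normalization, median centring, the upper 60% of genes by mean, array weights, eBayes with a trend and robust variances, the replicate number as a block, the mean of probe sets, an adjusted p under 0.01 and leaving out each array.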

Additional observations from a re-analysis of the deposited data

Results flagged for a closer look

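Plod2 minus Plod3 on control array 3, at 1.18, stood apart from the other labelled control arrays, at 1.05 to 1.07. The gap took up 0.845 of the range of the group, past the critical value of Dixon's test. It was the only one among 80 groups of 4 values examined, and chance flags about 1 group in 20. The labelled mutant arrays, at -0.39 to -0.29, lay far below either value.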

How the results depend on the processing

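The differences of P4ha1, P4ha2, Plod1 and Plod2 kept their direction and stayed past the threshold under each of 17 alternatives, with ranges of -1.39 to -1.25, -1.04 to -0.90, -0.78 to -0.57 and -1.86 to -1.71. None of the 10 genes changed direction under an alternative that was run; P4ha3 was outside the upper 60% of genes by mean. The calls of P4hb and Lox were lost under 11 and 8 of the 17 alternatives, and that of Plod3 under 1. The cause was not tested, except that fits without arrays hold fewer samples. At an adjusted p under 0.01, a setting outside the 17, 5 of the 10 genes were called lower. With the replicate block 6 of the 10 genes were called lower, against 7 without it; among the members and both collagen lists it changed the calls of P4hb and Bmp1 alone. The number of the 10 genes called lower ran from 5 to 6 without 1 array and was 4 without both of mutant arrays 1 and 2, an alternative chosen after seeing the data. The whole-table count of 1442 called genes ran from 902 to 1368 without 1 array (917 without mutant array 2, 903 without control array 2 and 902 without control array 3), was 602 at an adjusted p under 0.01 and 1657 with the replicate block. Collagen-processing genes called lower numbered 3 to 4 without 1 array and 2 without both of mutant arrays 1 and 2. Those called higher numbered 1 to 2 without 1 array, and 1 with array weights, at an adjusted p under 0.01 and without both of mutant arrays 1 and 2, against 2 otherwise; Pcolce2 was the gene lost with array weights (limma adjusted p = 0.0776). The number of collagen and elastin chain genes called lower was 3 under each alternative. The 7 differences between related genes kept their sign under each alternative; fits without 1 array were read as values, with no test. The precision is limited by 4 arrays per group; arrays have no sequencing depth, and low signals such as that of P4ha3 may understate a difference.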
